A study of Homo sapiens with 14 samples.

Results

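The genes described here are 28 genes of cholesterol and fatty acid synthesis, chosen by symbol from the 57445 gene entries of the deposited count tables of human pluripotent stem cells and of day 11 cultures derived from them. All 28 had an entry and passed the filter on low counts, and the lowest count of any of them in a library was 12 reads (CYP51A1 at 0.7 µM CHIR, replicate 1). They are 7 genes of the mevalonate steps, 11 of the squalene and sterol steps, 4 that regulate or carry sterol, and 6 of fatty acid synthesis and desaturation. The study steered H9 cells (WA-09), a long-used human embryonic stem cell line, toward midbrain dopamine neurons, and varied a boost of CHIR99021 (CHIR), an inhibitor of the kinase GSK3 that activates WNT signalling. RNA was sequenced in 14 libraries, of which 10 are used here, and the later stages were not analysed here. The 5 groups of 2 libraries were day 11 cultures given 0.7, 3, 5 or 7.5 µM CHIR from day 4, and undifferentiated H9 cells (hPSC). Every day 11 culture, those at 0.7 µM included, had 0.7 µM CHIR up to day 3 together with Sonic hedgehog (SHH C25II), LDN and SB431542 (inhibitors of BMP and TGF-beta signalling), and a Rock inhibitor at the start. These patterning factors were withdrawn on day 7. On day 10 all 4 arms passed into one medium with 3 µM CHIR, BDNF, GDNF, ascorbic acid, TGFβ3 and dbcAMP, so the arms differed in CHIR before then only. The series text and the protocol date the end of the boost differently, to day 9 and day 10. Nothing states that replicates came from independent cultures, and the p-values then cover library-to-library spread alone.

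Cells build cholesterol from acetyl-CoA by way of mevalonate and squalene, and fatty acids from the acetyl-CoA that ATP citrate lyase (ACLY) releases from citrate. Genes of both branches share the sterol regulatory element binding proteins, encoded by SREBF1 and SREBF2, as activators: when membrane sterol is low these proteins leave the endoplasmic reticulum, are cleaved and enter the nucleus, and INSIG1 retains them when sterol is high. The developing brain makes its own sterol, and sterols take part in Sonic hedgehog signalling, which patterns the floor plate from which midbrain dopamine neurons arise.

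The stretches upstream of some of these genes carry letters of the elements through which the pathway is regulated, and 5 of them are printed here for the members that the comparisons turn on. RefSeq promoters (GRCh38.p14) were matched by symbol for 24 of the 28 genes; SQLE, ACAT2, FDFT1 and FASN were not matched. In the 250 bases before the start, searched on both strands, the sterol regulatory element core TCACNCCAC was present for 1 of the 24 genes, SREBF2, and in 0.883% of all 35116 promoters of that length. A shorter form contained in it, CACNCCAC, which was chosen after the data were seen, was present for 5 genes (IDI1, INSIG1, SC5D, SCD and SREBF2) and in 4.87% of all promoters. CCAAT, the box bound by NF-Y, a partner of the sterol regulatory element binding proteins, was present for 18 of the 24 genes and in 32.0% of all promoters. CACGTG, an E-box, was present for INSIG1 and SC5D, 2 of the 24, and in 6.34% of all promoters. A gene with several listed promoters was counted where any of them held the letters, and a match describes letters only. The 220 bases that end directly before the start are given 5′ to 3′ on the strand of the gene, with these letters, on either strand, in capitals. They are chr22:41832885-41833104 (plus strand) for SREBF2, which holds the full element, and chr7:155297658-155297877 (plus strand) for INSIG1. Those of HMGCS1 are chr5:43313413-43313632 (minus strand), those of SCD chr10:100347013-100347232 (plus strand) and those of ACLY chr17:41919023-41919242 (minus strand).
SREBF2: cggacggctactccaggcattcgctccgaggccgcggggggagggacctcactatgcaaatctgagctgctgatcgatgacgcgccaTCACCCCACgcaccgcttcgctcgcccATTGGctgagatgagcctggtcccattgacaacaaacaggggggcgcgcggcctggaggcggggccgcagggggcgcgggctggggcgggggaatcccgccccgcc
INSIG1: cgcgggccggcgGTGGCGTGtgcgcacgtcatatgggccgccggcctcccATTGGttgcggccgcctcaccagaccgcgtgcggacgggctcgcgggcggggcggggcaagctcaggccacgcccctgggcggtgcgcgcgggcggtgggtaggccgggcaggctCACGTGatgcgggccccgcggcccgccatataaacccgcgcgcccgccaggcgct
HMGCS1: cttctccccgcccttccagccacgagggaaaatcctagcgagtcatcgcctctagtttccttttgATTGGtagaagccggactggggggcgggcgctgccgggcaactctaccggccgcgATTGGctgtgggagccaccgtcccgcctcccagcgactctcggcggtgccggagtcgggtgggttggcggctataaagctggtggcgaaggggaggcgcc
SCD: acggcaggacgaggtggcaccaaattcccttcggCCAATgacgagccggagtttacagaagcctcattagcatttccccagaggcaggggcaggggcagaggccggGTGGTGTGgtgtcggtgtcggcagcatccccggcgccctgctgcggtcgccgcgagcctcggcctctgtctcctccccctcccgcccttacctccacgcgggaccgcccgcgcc
ACLY: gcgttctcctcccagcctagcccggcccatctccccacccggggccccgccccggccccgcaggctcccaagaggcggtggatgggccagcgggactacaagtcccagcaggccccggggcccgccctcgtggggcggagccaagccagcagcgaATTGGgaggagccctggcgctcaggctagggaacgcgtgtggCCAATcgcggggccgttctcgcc

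Gene counts came to 20.5 to 44.8 M per library, and values are given as CPM, a gene's reads scaled by the TMM-adjusted total of gene counts in its library. The defining stem cell genes POU5F1 and NANOG were at no more than 1.73 and 0.0546 CPM in any day 11 library, against 412 to 474 and 13.6 to 24.6 CPM in hPSC, whereas LIN28A was at 1130 to 1995 CPM at day 11 and at 1200 to 1679 CPM in hPSC. The floor plate genes FOXA2 and LMX1A were at 53.0 to 216 and 28.6 to 104 CPM at day 11, and at most at 0.496 and 0.181 CPM in hPSC. The WNT target AXIN2 was at 277 and 241 CPM at 7.5 µM in replicates 2 and 1, against 70.9 and 25.3 CPM at 0.7 µM. Reads outside annotated genes were 14.2% to 16.4% of all counts in replicate 2 of the 3 lower concentrations, against 6.88% to 7.96% in replicate 1 of the same arms. Hepatocyte and endoderm genes, whose cells also make much sterol, summed to 1.28 to 31.5 CPM over 5 markers at day 11 and to 0.441 to 0.544 CPM in hPSC. The 4 oligodendrocyte lineage genes summed to 24.9 to 94.1 CPM at day 11 and to 166 to 173 CPM in hPSC.

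At day 11 most cholesterol and fatty acid synthesis genes were below their level in undifferentiated cells. The 28 genes together held 2410 to 3828 CPM in the 8 day 11 libraries, against 6563 and 6748 CPM in the hPSC libraries. For 17 of the 28 genes every day 11 library lay below both hPSC libraries, and for none did every day 11 library lie above them; over all 19672 genes tested, 20.8% lay below and 17.6% above in this way. These 17 were ACAT2, HMGCS1, IDI1 and FDPS of the mevalonate steps, FDFT1, SQLE, MSMO1, HSD17B7, SC5D and DHCR7 of the sterol steps, the regulators INSIG1 and SREBF2, and ACLY, SCD, FADS1, FADS2 and ELOVL6 of fatty acid synthesis. With the replicate 2 libraries of day 11 alone 21 genes lay below hPSC and 0 above, where 30.3% and 28.7% of all genes did. With the replicate 1 libraries alone 19 lay below and 4 above (MVK, PMVK, MVD and TM7SF2), where 32.9% and 30.7% of all genes did. In bulk RNA, fewer cells with a transcript and less of it per cell cannot be told apart.

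HMGCS1 (ENSG00000112972), which makes HMG-CoA ahead of mevalonate, had, in replicates 2 and 1, 227 and 164 CPM at 0.7 µM, 311 and 306 at 3 µM, 280 and 192 at 5 µM and 205 and 325 at 7.5 µM, against 636 and 779 CPM in hPSC. The highest day 11 library was below the lower hPSC library. INSIG1 (ENSG00000186480) retains the activators when sterol is high. It had 40.2 and 20.9 CPM at 0.7 µM, 60.2 and 39.5 at 3 µM and 48.0 and 31.9 at 5 µM. At 7.5 µM it had 21.8 and 38.0 CPM, against 114 and 122 CPM in hPSC. SQLE (ENSG00000104549), squalene epoxidase, had 88.5 and 30.8 CPM at 0.7 µM, 120 and 62.4 at 3 µM, 102 and 49.5 at 5 µM and 86.7 and 96.8 at 7.5 µM, against 202 and 207 CPM in hPSC. Neither gene overlapped between day 11 and hPSC. SCD (ENSG00000099194), the desaturase that makes oleate and, per kilobase of exon, the most abundant member in hPSC (262 CPM per kb) and at every concentration (85.5 to 131 CPM per kb), had 712 and 478 CPM at 0.7 µM, 779 and 622 at 3 µM, 632 and 441 at 5 µM and 398 and 519 at 7.5 µM, against 1514 and 1299 CPM in hPSC. ACLY (ENSG00000131473) had 133 and 109 CPM at 0.7 µM, 172 and 126 at 3 µM, 193 and 150 at 5 µM and 215 and 281 at 7.5 µM, against 545 and 445 CPM in hPSC. SREBF2 (ENSG00000198911), which encodes the activator of the cholesterol branch, had 244 and 220 CPM at 0.7 µM, 297 and 347 at 3 µM, 282 and 254 at 5 µM and 167 and 288 at 7.5 µM, against 398 and 364 CPM in hPSC. For all 3 genes every day 11 library lay below both hPSC libraries.

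SREBF1 and FASN did not separate in this way. SREBF1 (ENSG00000072310), which encodes the activator of the fatty acid branch, had, in replicates 2 and 1, 20.4 and 30.5 CPM at 0.7 µM, 38.2 and 49.7 at 3 µM, 52.8 and 43.5 at 5 µM and 21.2 and 36.6 at 7.5 µM, against 36.3 and 44.1 CPM in hPSC. FASN (ENSG00000169710), fatty acid synthase, had 89.3 and 237 CPM at 0.7 µM, 236 and 321 at 3 µM, 320 and 213 at 5 µM and 165 and 296 at 7.5 µM, against 220 and 289 CPM in hPSC. For both genes the day 11 libraries lay on either side of the hPSC libraries.

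Each concentration was tested against hPSC with edgeR's quasi-likelihood test, and the 4 comparisons share the same 2 hPSC libraries. With no replicate term, 4 of the 28 genes passed as lower at 0.7 µM (HMGCS1 −1.86 ± 0.39 log2 and SE, INSIG1 −1.95 ± 0.48, ACLY −2.03 ± 0.36 and FADS2 −1.71 ± 0.45; Benjamini-Hochberg adjusted p = 0.0226, 0.0381, 0.0122 and 0.0489), where 11.4% of all genes passed, 5.31% as higher and 6.12% as lower. Only ACLY passed at 3 µM (−1.73 ± 0.35, edgeR adjusted p = 0.0183), where 13.7% of all genes passed, 6.14% as higher and 7.59% as lower. At 5 µM HMGCS1 (−1.58 ± 0.39) and ACLY (−1.53 ± 0.35) passed, among 11.4% of all genes (5.22% higher, 6.22% lower). At 7.5 µM INSIG1 (−1.98 ± 0.48) and SCD (−1.62 ± 0.39) passed, among 10.1% of all genes (4.35% higher, 5.7% lower). No member passed as higher. The median log2 difference over the 28 was −1.16 at 0.7 µM, −0.67 at 3 µM, −0.87 at 5 µM and −0.90 at 7.5 µM, against 0.04, 0.03, 0.03 and 0.05 over all genes tested. These calls rest on single libraries: with any 1 of the compared libraries left out 0 members passed, except 2 at 0.7 µM (INSIG1 and ACLY) without its replicate 2 library and ACLY at 3 µM without its replicate 2 library, where 7.77% and 7.52% of all genes passed. In the fits where 0 members passed, 0.557% to 4.94% of all genes did, and 3 to 11 members had an unadjusted p under 0.05.

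With the replicate number as a block within day 11, many more members passed, as did many more genes. These fits take the day 11 difference between replicate numbers out of the spread, and the hPSC numbers do not match those of day 11. The contrast with hPSC can still carry that difference, which its p-values then do not measure. At 0.7 µM 20 members were lower and 0 higher, among 46.1% of all genes passing and 25% as lower. At 3 µM 14 were lower and 2, MVD and TM7SF2, were higher, among 50.1% of all genes passing and 26.5% as lower. At 5 µM 17 were lower and TM7SF2 was higher, among 48% and 25.6%, and at 7.5 µM 19 were lower and 0 higher, among 34.8% and 18.1%. The 13 members that passed as lower at all 4 concentrations were ACAT2, HMGCS1, IDI1 and FDPS, then FDFT1, SQLE, SC5D and DHCR7, INSIG1, and ACLY, SCD, FADS2 and ELOVL6. The share of all genes that passed as lower at all 4 was not counted, and the 4 comparisons share their hPSC libraries. The count of 13 is therefore not read as a result about the members. Without the 3 µM replicate 2 library 10 members in place of 16 passed at that concentration, among 33% of all genes, and without its replicate 1 library 9 passed, among 27.5%. At 7.5 µM 12 in place of 19 passed without either hPSC library, among 19.5% of all genes without hPSC replicate 2 and 22.3% without hPSC replicate 1. The 8 cell cycle genes summed to 611 to 1836 CPM at day 11, against 2211 and 2528 CPM in hPSC, and their part in the lower levels was not tested.

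**Figure D1:**
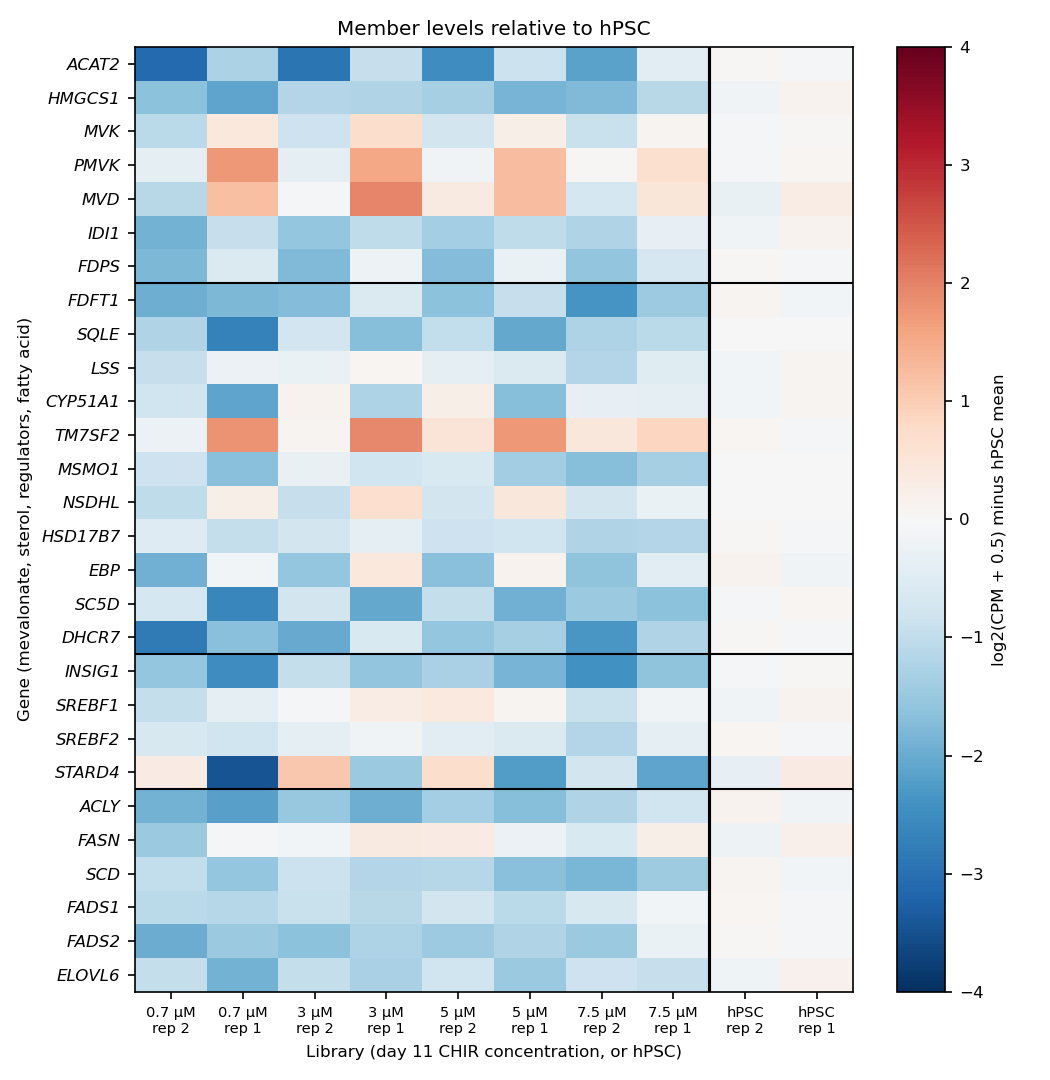
Each cell is the log2(CPM + 0.5) of a member in a library minus its mean over the hPSC libraries (colour scale, log2 units), with libraries along the bottom and the members down the side by role. The hPSC columns are near 0, 17 of the 28 rows are blue in every day 11 column, and MVK, PMVK, MVD and TM7SF2 are above hPSC in every replicate 1 column of day 11.

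The main question of the design is what the CHIR concentration did at day 11, and for these genes only ACLY and ACAT2 passed. ACLY rose to 215 and 281 CPM at 7.5 µM in replicates 2 and 1, against 133 and 109 CPM at 0.7 µM, a log2 difference of 1.05 ± 0.27 (SE; edgeR with the replicate number as a block, adjusted p = 0.0355). ACAT2 (ENSG00000120437), the cytosolic thiolase that starts the mevalonate steps, rose to 46.9 and 151 CPM at 7.5 µM, against 23.8 and 86.5 CPM at 0.7 µM, by 0.89 ± 0.24 log2 (adjusted p = 0.0377). Within each replicate number both genes were higher at every step of concentration. ACAT2 differed widely between replicate numbers and its groups overlapped, whereas both ACLY libraries at 7.5 µM lay above both at 0.7 µM. The 2 genes are 7.14% of the members, and 10.5% of all 18709 genes tested passed in this comparison, 5.64% as higher and 4.87% as lower, so the members' share is not above that of all genes.

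The other 26 members did not pass at 7.5 µM. Their log2 differences ran from −0.50 (HSD17B7) to 1.57 ± 0.56 (CYP51A1, edgeR adjusted p = 0.0972), and 5 besides ACLY and ACAT2 had an unadjusted p under 0.05. Of all 18709 genes tested, 5406 had an unadjusted p under 0.05. The median over the 28 was 0.09 and that over all genes 0.07. By role the medians were 0.08 for the mevalonate steps, −0.05 for the sterol steps, 0.11 for the regulators and 0.66 for the fatty acid genes. FADS2 (0.89 ± 0.28, adjusted p = 0.0673) and FADS1 (0.78 ± 0.27, adjusted p = 0.0911), the desaturases of polyunsaturated fatty acids, and IDI1 (0.66 ± 0.25, adjusted p = 0.116), an isomerase of the mevalonate steps, were among those of larger difference. HMGCS1, INSIG1, SREBF1, SREBF2, FASN and SCD had differences of 0.46, 0.06, 0.17, −0.06, 0.55 and −0.33 log2.

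The pairs of libraries with the same number show how the difference of 7.5 from 0.7 µM varied between replicate numbers. A split between the pairs can come from the libraries of either concentration. In 10 of the 28 genes the 7.5 µM library was above the 0.7 µM library in both pairs, as in 33.1% of all genes, in 2 it was below in both, and in 16 the pairs went opposite ways, as in 38.8% of all genes. INSIG1 differed by −0.87 log2 in the replicate 2 pair and by 0.85 in the replicate 1 pair. SQLE differed by −0.03 and 1.63 in the replicate 2 and replicate 1 pairs, MSMO1, a sterol demethylation enzyme, by −0.88 and 0.36, SC5D, a late sterol desaturase, by −0.78 and 0.97, and STARD4, a cytosolic sterol carrier, by −1.09 and 1.35. SQLE had 86.7 and 96.8 CPM at 7.5 µM in replicates 2 and 1, against 88.5 and 30.8 CPM at 0.7 µM. SC5D had 56.5 and 50.5 CPM, against 97.3 and 25.5 CPM, so for both genes the 0.7 µM libraries were further apart. The count of members that passed therefore rests on single libraries. Without the 7.5 µM replicate 2 library 12 of the 28 passed, 10 higher and 2 lower (PMVK and TM7SF2), and the share of all genes that passed also grew, to 29.1% (15.3% higher, 13.8% lower). Without the 7.5 µM replicate 1 library 4 passed, with ACAT2 higher and MSMO1, INSIG1 and SCD lower, among 11.3% of all genes (5.14% higher, 6.21% lower). Without the 0.7 µM replicate 2 or replicate 1 library 0 members passed, among 4.24% and 3.83% of all genes, with 6 and 5 members at an unadjusted p under 0.05. With no replicate block 0 of 28 and 0 of all genes passed in edgeR, with 1 member and 1641 genes at an unadjusted p under 0.05 (DESeq2 with no block passed 0 members and 657 genes).

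ACAT2 shares 52.3% of its exon bases with genes on the other strand, among them TCP1 and SOD2. The strandedness of the libraries is not given in the sources used here, so its counts may hold reads of those genes. CYP51A1, whose own level was under 6 CPM in every library, shares 79.3% of its exon bases with genes annotated on the same strand and has 3 pseudogene copies. Cell cycle genes moved with the same contrast: 6 of the 8 rose at 7.5 µM, where they summed to 1645 to 1836 CPM, against 809 to 812 CPM at 0.7 µM. In it 4 of 11 hypoxia and glycolysis genes fell, and 5.64% of all genes passed as higher and 4.87% as lower. The part of these gene lists in the rise of ACLY and ACAT2 was not tested.

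**Figure D2:**
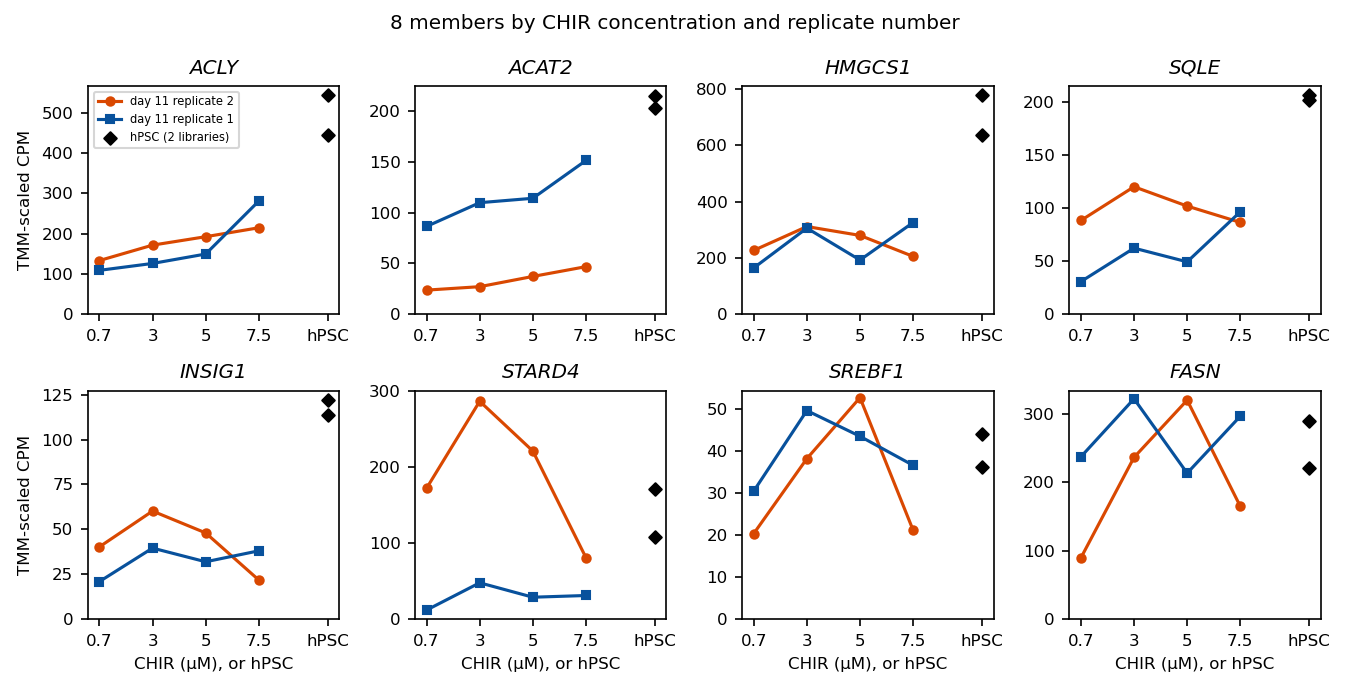
TMM-scaled CPM of 8 members (vertical axis) in each library, with the 4 CHIR concentrations at equal steps and hPSC at the right; circles joined by lines are replicate 2, squares replicate 1, diamonds the hPSC libraries. ACLY and ACAT2 climb in both lines. The lines of ACLY, HMGCS1, SQLE, INSIG1, SREBF1 and FASN cross between the highest concentrations. STARD4 runs at 80.8 to 286 CPM in replicate 2 and at 11.8 to 47.7 CPM in replicate 1.

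At 3 µM nearly all members were somewhat above their level at 0.7 µM, and none passed. The estimate was positive for 27 of the 28 genes, PMVK being the exception, and 52.6% of all genes were positive. The median was 0.37 log2 over the members and 0.03 over all genes. By role the medians were 0.27 for the mevalonate steps, 0.48 for the sterol steps, 0.76 for the regulators and 0.28 for the fatty acid genes. The largest estimates were those of STARD4 (1.24 ± 0.46, edgeR adjusted p = 0.558), CYP51A1 (1.18 ± 0.55, adjusted p = 0.681) and DHCR7, the last enzyme of one branch to cholesterol (0.95 ± 0.31, adjusted p = 0.472). Of all genes 0.0214%, or 4, passed (0.016% higher, 0.00535% lower). An unadjusted p under 0.05 was found for 5 members and 1400 of the 18709 genes. With DESeq2 0 members passed too. In 23 of the 28 genes the 3 µM library was above the 0.7 µM library in both pairs, as in 32.1% of all genes. With plain CPM in place of TMM scaling, which moved the median of all genes to −0.16, the members' median was 0.18 and 16 of 28 genes were higher in both pairs, as were 18.4% of all genes. All 11 hypoxia and glycolysis genes also had positive estimates at 3 µM, with a median of 0.52; 0 passed in edgeR and 4 had an unadjusted p under 0.05. Their part in the members' values was not tested.

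The regulators had the largest median of the 4 roles at 3 µM. INSIG1 had 60.2 and 39.5 CPM at 3 µM in replicates 2 and 1, against 40.2 and 20.9 CPM at 0.7 µM, and SREBF1 had 38.2 and 49.7 CPM, against 20.4 and 30.5 CPM. SREBF2 had 297 and 347 CPM at 3 µM, against 244 and 220 CPM at 0.7 µM. For INSIG1, SREBF1 and SREBF2 the 3 µM library was above the 0.7 µM library in both pairs, as in 32.1% of all genes. The INSIG1 values overlapped between the concentrations. Beside these, HMGCS1 had 311 and 306 CPM at 3 µM, against 227 and 164 CPM, and FASN had 236 and 321 CPM, against 89.3 and 237 CPM.

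At 5 µM the estimates against 0.7 µM were positive for 25 of 28 genes, with a median of 0.26 against 0.02 over all genes. In this comparison 0 members passed, among 1.13% of all genes (0.706% higher, 0.422% lower), and DESeq2 passed 0 members. An unadjusted p under 0.05 was found for 3 members and 1893 of the 18709 genes. In 19 of the 28 genes the 5 µM library was above the 0.7 µM library in both pairs, as in 29.9% of all genes (14 of 28 and 23.4% with plain CPM). The 3 comparisons with 0.7 µM share its 2 libraries. Between 7.5 and 5 µM, 0 members passed among 6.53% of all genes (3.22% higher, 3.3% lower). Here 2 members and 5323 genes had an unadjusted p under 0.05. The median was −0.21 against 0.06 over all genes (0.04 and 0.31 with plain CPM). Without the 7.5 µM replicate 2 library 10 members passed in that comparison, 5 higher and 5 lower, among 30.2% of all genes (16.4% higher, 13.8% lower), and without the 7.5 µM replicate 1 library 3 passed as lower, among 5.15% (2.87% lower). Between 5 and 3 µM 0 members and 0 genes passed, with 0 members and 527 genes at an unadjusted p under 0.05 (33 genes passed with DESeq2). The slope per doubling of CHIR passed for 0 members and 1.19% of all genes (0.722% higher, 0.465% lower). For the slope 4 members and 2251 genes had an unadjusted p under 0.05. DESeq2 also passed 0 members in these 3 contrasts.

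More members passed between replicate numbers than between any concentrations at day 11. The replicate contrast sets 4 libraries against 4 and each pair of concentrations 2 against 2, so these counts do not compare like with like. In replicate 2 against replicate 1 at matched concentration, 17 of the 28 genes passed, 5 higher and 12 lower, which is 60.7% of the members; 55.6% of all genes passed, 28.7% higher and 26.9% lower, so the members' share is close to that of all genes. The median was −0.37 over the members and 0.02 over all genes. Of the mevalonate steps 0 were higher and 6 of 7 lower, of the sterol steps 3 were higher and 5 of 11 lower, of the regulators STARD4 alone passed, and of the fatty acid genes 1 was higher and 1 of 6 lower. The sample descriptions give the replicate 2 libraries of day 11 one code and the replicate 1 libraries another, and state no further difference. Without both 7.5 µM libraries 21 members passed, 9 higher and 12 lower, among 66.4% of all genes in the same fit (34.7% higher, 31.7% lower).

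In 6 of the 7 mevalonate genes the replicate 2 library was below the replicate 1 library at every concentration. MVD (ENSG00000167508), which decarboxylates mevalonate diphosphate, had 8.58 and 45.1 CPM in replicates 2 and 1 at 0.7 µM, 18.1 and 76.8 at 3 µM, 24.9 and 45.6 at 5 µM and 11.7 and 27.5 at 7.5 µM, a log2 difference of −1.64 ± 0.26 (edgeR adjusted p = 0.000889). PMVK, the kinase before it, had 11.2 and 49.8 CPM at 0.7 µM, 11.0 and 43.2 at 3 µM, 12.98 and 34.6 at 5 µM and 15.0 and 22.9 at 7.5 µM (−1.54 ± 0.26). MVK, mevalonate kinase, had 5.84 and 17.4 CPM at 0.7 µM, 6.98 and 21.3 at 3 µM, 7.58 and 15.3 at 5 µM and 6.73 and 13.9 at 7.5 µM (−1.31 ± 0.21). In all 3 genes the replicate 2 library was lower in each of the 4 pairs, as in 33.1% of all genes. FDPS, which makes farnesyl diphosphate and has 8 annotated pseudogene copies, had 74.9 and 176 CPM at 0.7 µM, 77.3 and 229 at 3 µM, 77.6 and 216 at 5 µM and 88.3 and 164 at 7.5 µM (−1.29 ± 0.18). ACAT2 had 23.8 and 86.5 CPM at 0.7 µM, 27.1 and 110 at 3 µM, 37.2 and 114 at 5 µM and 46.9 and 151 at 7.5 µM, the difference with the smallest p among the members (−1.80 ± 0.17, edgeR adjusted p = 0.000265). IDI1 also passed as lower (−0.69 ± 0.18), and HMGCS1 did not pass (0.09 ± 0.22).

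The sterol steps went both ways. EBP, the sterol isomerase, had, in replicates 2 and 1, 16.9 and 61.1 CPM at 0.7 µM, 22.2 and 88.2 at 3 µM, 20.4 and 72.9 at 5 µM and 21.3 and 49.0 at 7.5 µM (−1.72 ± 0.19). NSDHL, a sterol dehydrogenase, had 16.6 and 40.7 CPM at 0.7 µM, 17.8 and 54.6 at 3 µM, 20.2 and 47.0 at 5 µM and 20.3 and 28.2 at 7.5 µM (−1.15 ± 0.21). TM7SF2, a sterol reductase, had 13.6 and 56.9 CPM at 0.7 µM, 17.4 and 62.0 at 3 µM, 22.9 and 54.1 at 5 µM and 22.1 and 29.2 at 7.5 µM (−1.39 ± 0.27). In these 3 genes too the replicate 2 library was lower at every concentration, as in 33.1% of all genes. FDFT1, squalene synthase, and DHCR7 also passed as lower (−0.73 ± 0.20 and −0.99 ± 0.22). In the other direction SC5D had 97.3 and 25.5 CPM at 0.7 µM, 95.2 and 38.4 at 3 µM, 82.4 and 41.4 at 5 µM and 56.5 and 50.5 at 7.5 µM (1.10 ± 0.26), CYP51A1, the lanosterol demethylase, had 2.23 and 0.597 CPM at 0.7 µM, 4.81 and 1.53 at 3 µM, 5.18 and 0.983 at 5 µM and 3.30 and 3.25 at 7.5 µM (1.42 ± 0.40), and SQLE, with the values given above, differed by 0.84 ± 0.25 (adjusted p = 0.0171). For these 3 genes the replicate numbers were apart at the 3 lower concentrations and close together at 7.5 µM.

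STARD4 (ENSG00000164211) had the largest replicate-number difference of all members. It had, in replicates 2 and 1, 172 and 11.8 CPM at 0.7 µM, 286 and 47.7 at 3 µM, 221 and 28.7 at 5 µM and 80.8 and 31.0 at 7.5 µM, against 108 and 171 CPM in hPSC, and the day 11 difference was 2.69 ± 0.34 log2 (edgeR adjusted p = 0.000478). The hPSC libraries lay between the replicate numbers of the 3 lower concentrations. INSIG1, SREBF1 and SREBF2 did not pass (0.34 ± 0.27, −0.37 ± 0.21 and −0.18 ± 0.20), nor did ACLY, FASN, SCD and FADS1. ELOVL6, an elongase of saturated fatty acids, passed as higher (0.53 ± 0.19) and FADS2 as lower (−0.59 ± 0.20).

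**Figure D3:**
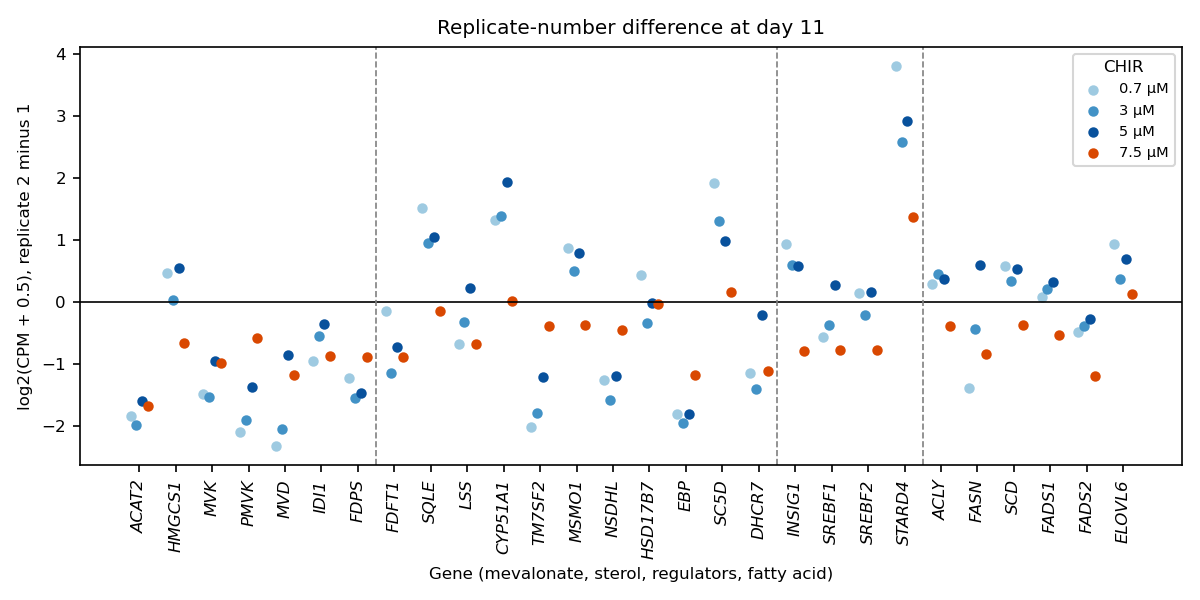
For each member (horizontal axis, by role) the 4 points are the log2(CPM + 0.5) of replicate 2 minus that of replicate 1 at the same CHIR concentration. Points of ACAT2, MVK, PMVK, MVD, FDPS and EBP lie below 0 at every concentration, those of STARD4 above 0, and for HMGCS1, SQLE, MSMO1, INSIG1, ACLY, SCD and FADS1 the 7.5 µM point lies below 0 while the others lie above.

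Over all 4 pairs 4 members were higher in replicate 2 each time and 12 lower each time, as were 33.8% and 33.1% of all genes. The members that passed in each direction differed in the base composition of their transcripts. The 5 that passed as higher in replicate 2 had a median GC content of 41.2% in their longest basic transcript (34.2% to 46.5%), and the 12 that passed as lower one of 56.7% (41.1% to 65.6%). Across the 28 genes, which share libraries and are not independent, Spearman's correlation of the replicate-number difference was −0.69 with GC content and 0.46 with transcript length; across 18206 genes it was −0.43 and 0.48. With offsets for length and GC content, an alternative chosen after the data were seen, 2 members passed as higher (SQLE and STARD4) and 11 as lower, where 43.3% of all genes passed, 21.1% as higher and 22.2% as lower. HMGCS1 then passed as lower (−0.63) and ELOVL6 turned to lower (−0.52). ACAT2 at −1.77, IDI1 at −1.31 and EBP at −1.12 had the largest differences that remained lower, and STARD4 was 1.43 higher.

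**Figure D4:**
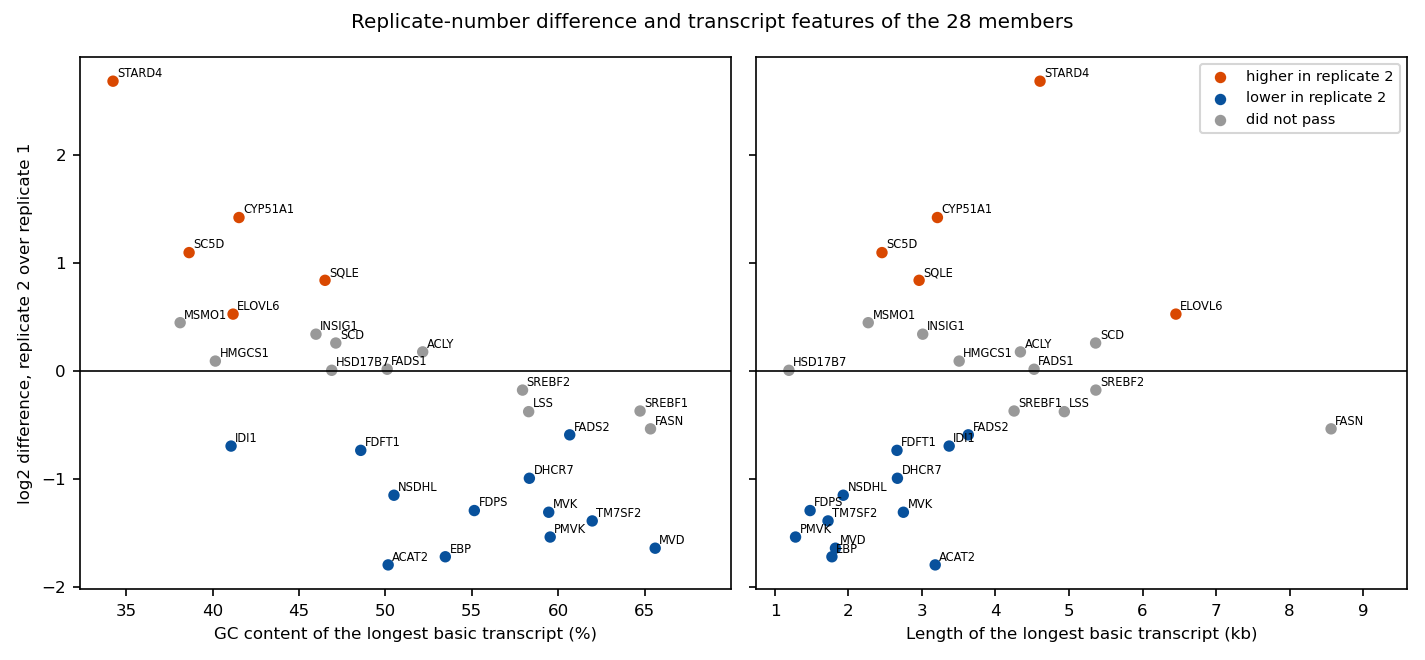
The log2 difference of replicate 2 over replicate 1 (vertical axis) of each of the 28 members against the GC content in percent (left) and the length in kilobases (right) of its longest basic transcript; orange points passed as higher in replicate 2, blue as lower, and grey did not pass. The orange points lie at 34.2% to 46.5% GC and most blue points at higher GC.

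Hypoxia and glycolysis genes, which low oxygen induces, differed with the replicate number too. Of the 11, 9 were higher in replicate 2 and 0 lower, with a median of 2.06 log2, and their summed level was 5482 and 2331 CPM in replicates 2 and 1 at 0.7 µM, 6994 and 4311 at 3 µM, 6684 and 4150 at 5 µM and 3202 and 1964 at 7.5 µM. Of 7 amino acid and ER stress genes 0 were higher and 3 lower. Of all genes 28.7% passed as higher and 26.9% as lower in this comparison. The part of these gene lists, of GC content and of the share of reads assigned to no feature in the members' values was not tested.

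At 7.5 µM the replicate numbers differed in another way than at the 3 lower concentrations for INSIG1. INSIG1 had 21.8 and 38.0 CPM in replicates 2 and 1 at 7.5 µM, whereas replicate 2 was the higher of the pair at 0.7, 3 and 5 µM. The test of this difference gave −1.51 ± 0.29 log2 (edgeR adjusted p = 0.0475), and INSIG1 was the 1 member of 28 that passed, among 2.59% of all genes (0.299% higher, 2.29% lower); 16 of the 28 members and 4759 of the 18709 genes had an unadjusted p under 0.05. The count depended on the fit, and INSIG1 passed in each: 7 members passed with plain CPM, among 5.15% of all genes, 8 with the DESeq2 test, among 12.1% of the genes it gave an adjusted p, and 14 with no filter on low counts, among 7.36%. Of the 28 estimates 20 were negative, and the median was −0.48 against 0.00 over all genes. STARD4 (−1.72 ± 0.44, adjusted p = 0.0674), SQLE (−1.32 ± 0.29, adjusted p = 0.0538) and MSMO1 (−1.09 ± 0.26, adjusted p = 0.0602) did not pass. TM7SF2 and PMVK had estimates of the opposite sign (1.32 ± 0.36 and 1.24 ± 0.36), which did not pass either. The test sets 1 pair of libraries against 3 and assumes that the lone 7.5 µM library of each number varies like the others. It was chosen because earlier results of these data showed the 7.5 µM replicate 1 library apart from the other replicate 1 libraries. Its p-values do not allow for that choice. The slope over concentration did not differ between replicate numbers for any member or gene in edgeR, with 2 members and 1196 genes at an unadjusted p under 0.05 (0 members and 17 genes passed with DESeq2).

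Of 41 other genes of sterol and fatty acid handling, 40 were tested. At 7.5 µM against 0.7 µM 1 was higher and 3 lower, which is 10% of the list and close to the 10.5% of all genes that passed. LBR, the lamin B receptor with sterol reductase activity, rose by 1.18 ± 0.23 log2 (edgeR adjusted p = 0.0110), whereas the fatty acid binding protein FABP7, also a progenitor marker, fell by 2.24 (adjusted p = 0.0101), the elongase ELOVL1 by 1.33 and the lysosomal sterol carrier NPC2 by 1.27. In replicate 2 against replicate 1, 17 were higher and 11 lower, which is 70% of the list, where 55.6% of all genes passed (28.7% higher, 26.9% lower). The cholesterol exporter ABCA1 differed by 3.13 ± 0.32 log2 and INSIG2, a homologue of INSIG1, by 2.85 ± 0.25, the largest of the list. Against hPSC, with no replicate term, 1 was higher and 5 lower at 0.7 µM, 1 and 5 at 3 µM, 0 and 6 at 5 µM, and 1 and 3 at 7.5 µM, among 11.4%, 13.7%, 11.4% and 10.1% of all genes. With the block within day 11, 5 were higher and 18 lower at 0.7 µM, 7 and 16 at 3 µM, 6 and 18 at 5 µM, and 3 and 14 at 7.5 µM, among 46.1%, 50.1%, 48% and 34.8% of all genes.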

How the data were processed

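RNA from 14 libraries was sequenced, and the 10 of hPSC and day 11 are used here. Reads were counted per gene before the tables were deposited by the authors, and the values are raw counts. Per the submitters' processing notes, the tools named are STAR (2.4.2a), HTSeq (0.5.3), featureCounts (1.4.2) and also DESeq2 (1.12.4), on build hg19; no source used here gives settings or strandedness. The 5 summary entries, 37.4% to 44.3% of the counts of a library, were left out. Counts were scaled by TMM and tested in R 4.3.3 with the quasi-likelihood test of edgeR 4.0.16 after its filter on low counts, with Benjamini-Hochberg adjustment over all genes tested (18709 at day 11, 19672 with hPSC) and a threshold of 0.05. Every adjusted p in the text is from edgeR unless DESeq2 1.42.0 is named. Log2 values of single libraries use a pseudocount of 0.5 CPM. The fit was also run on simulated counts with known changes. Their spread was set and not estimated from these libraries, so that run does not measure the error of the fits here.

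Fits within day 11 had the replicate number as a block. Deviations of same-numbered day 11 libraries from their group means correlated at 0.70 to 0.92 in every pair of groups, whereas those of hPSC and day 11 correlated at −0.23 to −0.15. The main fits against hPSC had no block. No 2 libraries of a group had identical files, and their counts differed by 31.7 to 479 chi-square units per degree of freedom. Transcript length, GC content and overlaps came from GENCODE 29 by gene identifier, and promoters from RefSeq by symbol, with no coordinates converted. Libraries are given in full for members that passed at 7.5 against 0.7 µM or by at least 1 log2 between replicate numbers, and for HMGCS1, SQLE, INSIG1, SREBF1, SREBF2, FASN and SCD. At most 6 other pathway genes that passed are named. The members and gene lists were chosen with earlier results of these data known. Alternatives covered scaling, filter, test, block, offsets and each library left out.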

Additional observations from a re-analysis of the deposited data

Results flagged for a closer look

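INSIG1 met a criterion for a closer look because the difference between its replicate numbers was not the same at 7.5 µM CHIR as at the 3 lower concentrations. That comparison was chosen with earlier results of these data known, and its p-values do not allow for the choice. The difference of replicate 2 from replicate 1 was lower at 7.5 µM by −1.51 ± 0.29 log2 (SE; edgeR adjusted p = 0.0475, over all genes). INSIG1 had 21.8 and 38.0 CPM in replicates 2 and 1 at 7.5 µM, and replicate 2 was higher by 0.93, 0.60 and 0.58 log2 at 0.7, 3 and 5 µM. It was the 1 member of 28 that passed, among 2.59% of all genes, where other scalings, filters and tests passed 2 to 14 members, INSIG1 among them each time, and the comparison rests on 1 pair of libraries at 7.5 µM.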

How the results depend on the processing

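Counts are of the 28 members that passed, and the cause of each change was not tested. For 7.5 against 0.7 µM, 2 passed, among 10.5% of all genes. With the DESeq2 test 4 passed among 16.4%, and with no filter on low counts 5 among 10.7%. Length and GC offsets with the replicate block passed 4 among 14.1%. With no replicate block 0 passed among 0% in edgeR. ACAT2 was then at 0.85 and ACLY at 1.03 log2. With no filter 1 passed for 3 against 0.7 µM, among 1.01% of all genes. The same setting passed 1 for 7.5 against 5 µM, among 9.86%. In the main fits 0 had passed in both. A slope linear in µM passed 2 in place of 0, among 4.38% of all genes in place of 1.19%. For the replicate difference at 7.5 µM, 1 passed, among 2.59% of all genes. With DESeq2 size factors 2 passed among 3.41%, with plain CPM 7 among 5.15% and with the DESeq2 test 8 among 12.1%. No filter passed 14 among 7.36%, and offsets passed 2 among 2.53%. Against hPSC, in order of rising CHIR, 4, 1, 2 and 2 passed; with the DESeq2 test 12, 6, 7 and 8, with offsets 12, 4, 6 and 8, with the replicate block over all 10 libraries 15, 12, 12 and 8, and with the replicate block within day 11 20, 16, 18 and 19. Plain CPM gave 3 at 3 µM and 1 at 7.5 µM, and no filter gave 0 at 5 µM. Of all genes 11.4%, 13.7%, 11.4% and 10.1% passed in the main fits against hPSC. With the block within day 11 the shares were 46.1%, 50.1%, 48% and 34.8%. The shares in the other fits against hPSC are not given here, so those counts are not read as results about the members.

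With 1 library left out, 0 to 12 passed for 7.5 against 0.7 µM and 0 to 10 for 7.5 against 5 µM, the highest without the 7.5 µM replicate 2 library. Against hPSC the ranges were 0 to 2 at 0.7 µM, 0 to 1 at 3 µM, and 0 to 0 at 5 and 7.5 µM. With the replicate block within day 11 they were 16 to 22 at 0.7 µM, 9 to 15 at 3 µM, 13 to 15 at 5 µM and 12 to 24 at 7.5 µM. Replicate 2 against replicate 1 passed 13 to 22. The share of all genes that passed also changed between these fits. With the block, at 0.7, 3 and 7.5 µM, the highest count of members came with a larger share of all genes than the lowest. The same held for replicate 2 against replicate 1. The counts with 1 library left out are therefore not read as results about the members. A fit that leaves an arm with 1 library assumes that it varies like the others. INSIG1 at 7.5 against 0.7 µM was at −0.83 without the 7.5 µM replicate 1 library and at 0.68 without the replicate 2 library, both past the threshold. With offsets, replicate 2 against replicate 1 turned to −0.63 for HMGCS1 and −0.52 for ELOVL6. The offsets and the fits within day 11 with libraries left out against hPSC were chosen after seeing the data. The contrast of the replicate difference at 7.5 µM was chosen with earlier results of these data known. With 2 libraries a group, a p that misses the threshold does not show that levels were alike.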
